A study of Mus musculus with 12 samples.

Results

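Levels of 9 transcription factor genes that steer CD8 T cells towards effector and exhausted states were read from mouse Affymetrix arrays. They are the T-box genes Tbx21 (T-bet) and Eomes, Prdm1 (Blimp-1), Bhlhe40, the zinc finger E-box binding genes Zeb1 and Zeb2, and the Runt genes Runx1, Runx2 and Runx3. The genes were chosen by name, and 8 of the 9, among 18193 genes with a value, had a probe set that names that gene alone. Runx2 was not analysed here. Where a gene had several probe sets, the one with the highest mean over all 12 arrays stood for it.

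The arrays hold sorted CD8 T cells of mice of strain C57bl/c aged 6 to 8 weeks, in 3 groups. The first is PD-1+ Tim-3+ tumour-infiltrating lymphocytes (TIL), also sorted as 2B4+ and called exhausted in the labels (n = 4). The second is PD-1+ Tim-3- TIL, also 2B4- and called stem-like (n = 3). Both came from B16F10-GP tumours, a skin melanoma line injected into the flank in Matrigel, taken between day 17 and day 19. The third group is CD8 T cells from the spleen of naive mice (n = 5). Tumours were digested with collagenase and passed over Percoll, a treatment the labels describe for tumours. Tissue, digestion and T cell state therefore cannot be told apart between TIL and naive cells. Whether 1 array holds 1 mouse or a pool is not stated, so p-values measure the spread between these samples.

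T-bet and Eomes are related activators that bind the same short T-box site and drive cytotoxic and cytokine genes. In chronic stimulation T-bet is associated with less differentiated cells and Eomes with more differentiated ones, although both are present in most activated CD8 T cells. Blimp-1 is a repressor that switches off memory genes in effector cells and is high in exhausted cells. ZEB1 and ZEB2 bind the same E-box and act in opposition in CD8 T cells, ZEB1 in memory and ZEB2, downstream of T-bet, in terminal effectors. RUNX3 silences Cd4 and sets the cytotoxic program, RUNX1 acts earlier in T cell development, and both need the partner CBF-beta to bind DNA. BHLHE40 is a basic helix-loop-helix repressor induced by antigen receptor signals.

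Promoters are shown for Prdm1, Tbx21, Eomes, Runx1 and Runx3, as the sequence on which the family's own motifs can be looked up. Promoters from RefSeq's table (GRCm38.p6) were read for 6 of the 8 measured genes, all but Zeb1 and Bhlhe40. Each sequence is the 250 bases before 1 annotated start, 5' to 3' on the gene's strand, and capitals mark a match to any of 5 motifs on either strand. Prdm1 is chr10:44458749-44458998 on the minus strand, Tbx21 chr11:97115332-97115581 on the minus strand and Eomes chr9:118477939-118478188 on the plus strand. Runx1 is chr16:92826075-92826324 on the minus strand and Runx3 chr4:135120395-135120644 on the plus strand.
Prdm1: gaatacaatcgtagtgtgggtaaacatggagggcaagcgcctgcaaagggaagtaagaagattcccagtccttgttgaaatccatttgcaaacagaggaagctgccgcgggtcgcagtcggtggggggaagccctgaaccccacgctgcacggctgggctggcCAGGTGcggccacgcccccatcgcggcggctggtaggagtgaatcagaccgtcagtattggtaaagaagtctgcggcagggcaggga
Tbx21: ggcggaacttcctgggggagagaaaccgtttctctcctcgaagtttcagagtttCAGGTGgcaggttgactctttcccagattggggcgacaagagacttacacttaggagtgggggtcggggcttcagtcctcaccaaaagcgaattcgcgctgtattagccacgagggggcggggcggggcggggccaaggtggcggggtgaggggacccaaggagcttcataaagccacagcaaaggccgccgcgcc
Eomes: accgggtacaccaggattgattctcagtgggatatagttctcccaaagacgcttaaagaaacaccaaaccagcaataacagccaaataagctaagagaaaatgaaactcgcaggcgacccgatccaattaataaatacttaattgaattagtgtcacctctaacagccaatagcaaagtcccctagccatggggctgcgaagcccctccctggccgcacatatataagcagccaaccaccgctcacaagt
Runx1: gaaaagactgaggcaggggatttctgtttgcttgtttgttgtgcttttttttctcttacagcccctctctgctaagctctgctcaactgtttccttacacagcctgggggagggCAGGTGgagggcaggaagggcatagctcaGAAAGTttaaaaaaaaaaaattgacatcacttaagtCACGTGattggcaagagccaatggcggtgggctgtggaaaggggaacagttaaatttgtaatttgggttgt
Runx3: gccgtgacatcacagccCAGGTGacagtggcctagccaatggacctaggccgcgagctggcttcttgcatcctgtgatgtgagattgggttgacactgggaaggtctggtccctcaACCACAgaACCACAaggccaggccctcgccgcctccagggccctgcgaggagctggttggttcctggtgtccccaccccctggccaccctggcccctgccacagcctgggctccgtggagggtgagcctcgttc

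The motifs searched were AGGTGT for the T-box, TGTGGT for RUNX, CAGGTG for the ZEB E-box, CACGTG for the BHLHE40 E-box and GAAAGT for the core of the Blimp-1 site. AGGTGT and CAGGTG share letters and can overlap. The 6 genes have 11 annotated starts in the table, of which the first of each is shown for the genes named, and 4 of the 11 held the ZEB E-box, against 17.2% of the 32851 promoters in the table. These were Prdm1, Tbx21 and the starts shown for Runx1 and Runx3, at positions -87, -196, -136 and -233. The other start of Runx1, that of Runx3 and the 4 of Zeb2 held no ZEB E-box. Runx3 also held the RUNX motif at -134 and -126 on the opposite strand, a motif in 14.0% of promoters. Runx1 held GAAAGT at -107 (12.3% of promoters) and CACGTG at -71 (6.02%). Starts 2 and 3 of Zeb2, not shown, also held GAAAGT on the opposite strand, at -172 and -198, in windows that overlap. No T-box letters (11.8%) were in the windows shown, and the Eomes window held none of the 5 motifs. A match is a string of letters and not a measured binding site.

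Arrays of all groups fell into 2 sets that the labels do not name, found from each gene's deviation from its group mean. Replicates 1 and 2 of the Tim-3+ and of the naive arrays form set A together with a lone Tim-3- array, replicate 1. The other 7 arrays form set B. A value within set A therefore leans on 1 Tim-3- array. The axis that parts them carried 35.8% of the variance within groups, and the sets were drawn from the same values they are used on. Among the sort markers, log2 intensity of Havcr2 (Tim-3) averaged 11.66 in Tim-3+ TIL, 7.08 in Tim-3- TIL and 4.63 in naive cells, and Cd244a (2B4) 11.49, 4.89 and 4.19. Pdcd1 (PD-1) averaged 11.77, 11.37 and 5.14. Of 6 listed CD8 T cell markers, 5 were measured and all 5 lay above log2 5.71 in every group. Among these Cd8b1 was lower in TIL, averaging 11.76 in Tim-3+ TIL, 11.70 in Tim-3- TIL and 12.46 in naive cells. Log2 5.71 is percentile 40 of all genes by mean over the arrays. No detection calls came with the values, so a group with a mean under that level could be reading background, and a fold against such a group can only be a minimum.

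Between the TIL groups, Prdm1 rose 4.13-fold in Tim-3+ cells while Eomes and Zeb1 fell 1.96-fold and 2.12-fold. Tbx21, Zeb2, Bhlhe40, Runx1 and Runx3 did not pass the test. The test was limma over all 12 arrays, with Benjamini-Hochberg adjusted p below 0.05 over 18193 genes. It called 3 of the 8 measured factors, 1 higher and 2 lower, where 13.5% of all genes were called, 7.77% higher and 5.77% lower. The arrays of the TIL groups did not overlap for 5 of the 8, against 22.7% of all genes. The median log2 change of the 8 was 0.10, against 0.011 over all genes.

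Against naive cells nearly the whole set moved in both TIL groups. In Tim-3- TIL 6 factors rose and 1, Runx1, fell, 7 of 8 in all, where 34.4% of all genes were called (16.1% higher, 18.3% lower). In Tim-3+ TIL 6 rose and 2, Runx1 and Zeb1, fell, where 41.5% of genes were called (20.1% higher, 21.4% lower). The median log2 changes of the 8 were 1.78 and 2.32, against -0.063 and -0.066 over all genes. Arrays of TIL and naive cells did not overlap for 7 of 8 factors in each comparison, Zeb1 being the exception, against 35.1% of genes for Tim-3- and 37.3% for Tim-3+ TIL. These comparisons use the same naive arrays.

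**Figure D1:**
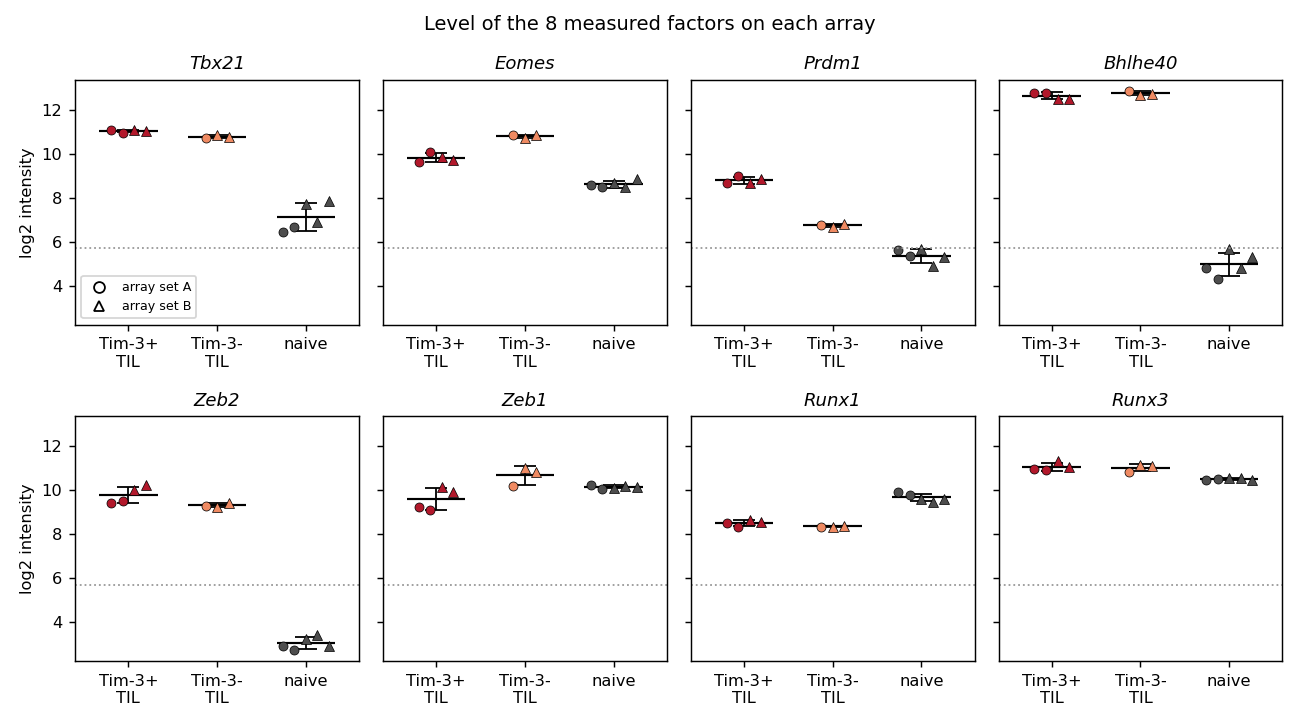
Log2 intensity (vertical axis) of each of the 8 measured factors on the 12 arrays, in Tim-3+ TIL, Tim-3- TIL and naive cells. Points are arrays (circles set A, triangles set B), horizontal lines the group mean, error bars ± SD, and the dotted line is log2 5.71. Prdm1 is highest in Tim-3+ TIL and lowest in naive cells, and Eomes is highest in the middle group. Prdm1, Zeb2 and Bhlhe40 lie below the dotted line in naive cells only.

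Prdm1 had log2 intensities of 8.65, 8.99, 8.67 and 8.83 on the Tim-3+ arrays, 6.76, 6.67 and 6.80 on the Tim-3- arrays, and 5.61, 5.35, 5.67, 4.87 and 5.31 on the naive arrays. The 3 groups formed separate bands, with Tim-3+ cells highest and naive cells lowest. Group means were 8.79 ± 0.16, 6.74 ± 0.068 and 5.36 ± 0.32 (SD), the naive mean below 5.71. The log2 change was 2.04 ± 0.17 (SE) between Tim-3+ and Tim-3- TIL (limma adjusted p = 1.73e-06). It was 1.38 ± 0.16 in Tim-3- TIL (adjusted p = 1.03e-05) and 3.42 ± 0.15 in Tim-3+ TIL (adjusted p = 1.92e-10), each against naive cells. With 1 array left out, the difference between the TIL groups stayed between 1.98 and 2.09. Of the 8 factors, Prdm1 was the only one whose 3 comparisons all passed with the same sign.

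Genes known to be repressed by Blimp-1 were read beside it, from a list drawn up from general knowledge that also holds targets known from B cells. Of its 12 genes 10 were measured, and between the TIL groups 0 rose and 6 fell, where 7.77% of all genes rose and 5.77% fell. The median log2 change was -1.73, against 0.011 over all genes. The list overlaps with genes known from earlier results on these arrays to be lower in Tim-3+ cells, so its direction is not independent evidence. Cxcr5, a chemokine receptor, averaged 4.68 in Tim-3+ and 8.51 in Tim-3- TIL, a change of -3.82 ± 0.24 (limma adjusted p = 1.76e-07), with the Tim-3+ mean below 5.71. Bcl6, the repressor that opposes Blimp-1, averaged 7.95 in Tim-3+ and 10.64 in Tim-3- TIL, a change of -2.69 ± 0.32.

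Bach2, a repressor of effector genes, changed by -2.31 ± 0.14 and Id3, a memory factor, by -1.22 ± 0.13, and Il2 and Ccr7 fell as well. Myc, Il2ra, Ciita and Pax5 did not pass, at 0.11, 0.15, 0.33 and 0.17. Ciita and Pax5, targets known from B cells, averaged below 5.71 in all groups.

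Against naive cells the same list split. In Tim-3- TIL, 4 of the 10 rose and 3 fell, while Tim-3+ TIL had 1 risen and 6 fallen, beside 34.4% and 41.5% of all genes called. Bcl6 was higher in Tim-3- TIL than in naive cells by 1.84 ± 0.31, whereas in Tim-3+ TIL it changed by -0.84 ± 0.28 (limma adjusted p = 0.0269). Leaving out Tim-3+ replicate 1 or 2, or naive replicate 3 or 4, ended that second call (adjusted p up to 0.0948). Il2 followed with 2.26 ± 0.27 in Tim-3- TIL and -0.36 ± 0.24 in Tim-3+ TIL, the second value short of the threshold (adjusted p = 0.272). The Tim-3+ and naive means of Il2, 4.59 and 4.95, lay below 5.71, as did the naive mean of Cxcr5, 5.69. Prdm1 was above naive in both groups, so Tim-3- TIL joined a raised Prdm1 level with raised Bcl6, Cxcr5 and Il2.

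Eomes had log2 intensities of 9.63, 10.08, 9.84 and 9.73 in Tim-3+ TIL, 10.83, 10.71 and 10.83 in Tim-3- TIL, and 8.59, 8.46, 8.66, 8.49 and 8.83 in naive cells. The order differed from Prdm1, since Tim-3- cells stood highest and Tim-3+ cells between them and naive cells, with no overlap. Means were 9.82 ± 0.19, 10.79 ± 0.068 and 8.61 ± 0.15 (SD). Eomes fell in Tim-3+ against Tim-3- TIL by 0.97 ± 0.12 on the log2 scale (limma adjusted p = 0.000117), and rose against naive cells by 2.19 ± 0.12 in Tim-3- and 1.21 ± 0.11 in Tim-3+ TIL. Its other probe set gave -0.71 ± 0.16, 2.16 ± 0.15 and 1.46 ± 0.14, all called. Fitted by set, the first change was -0.97 in A and -0.99 in B.

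Tbx21 lay at 11.05, 10.95, 11.08 and 11.04 in Tim-3+ TIL, 10.70, 10.83 and 10.76 in Tim-3- TIL, and 6.44, 6.67, 7.73, 6.88 and 7.83 in naive cells. TIL arrays were tightly grouped, with all Tim-3+ arrays above all Tim-3- arrays, and naive arrays were low and spread. The SD was 0.054 in Tim-3+ TIL, 0.068 in Tim-3- TIL and 0.63 in naive cells. The difference between TIL groups, 0.27 ± 0.28, did not pass (limma adjusted p = 0.640), nor did it when the TIL arrays were fitted without naive arrays (adjusted p = 0.116). Against naive cells Tbx21 rose by 3.65 ± 0.26 in Tim-3- TIL and 3.92 ± 0.24 in Tim-3+ TIL (adjusted p = 1.07e-07 and 9.65e-09). Naive arrays of set A were at 6.44 and 6.67 and those of set B between 6.88 and 7.83.

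The T-box pair thus changed unequally, which was read as Eomes minus Tbx21 within each array. The size of such a difference depends on the probes, so only its change between groups is of use. It averaged -1.21 ± 0.24 in Tim-3+ TIL, 0.029 ± 0.13 in Tim-3- TIL and 1.496 ± 0.52 in naive cells (SD), without overlap of any groups. The change was -1.24 between the TIL groups (exact permutation test, two-sided, p = 0.0571, the smallest 4 against 3 arrays allow). It was -1.47 for Tim-3- TIL against naive (exact p = 0.0357) and -2.71 for Tim-3+ TIL against naive (exact p = 0.0159). Adjusted over the 9 tests of this kind, the exact p-values were 0.0643, 0.0536 and 0.0476. All 3 exact p-values were the smallest their array numbers allow. Which of them falls below 0.05 after adjustment therefore follows the number of arrays and not the size of the change.

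**Figure D2:**
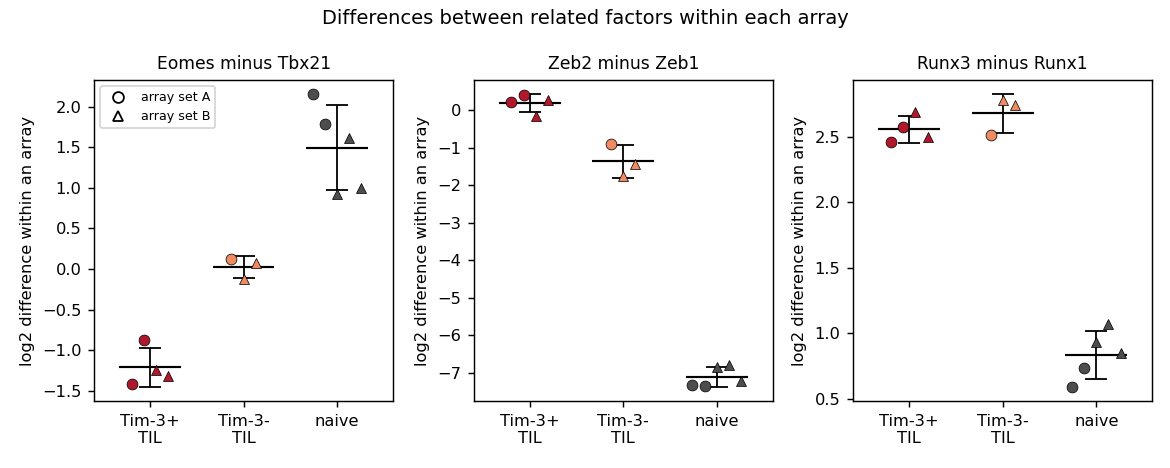
Log2 difference within each array (vertical axis) for Eomes minus Tbx21, Zeb2 minus Zeb1 and Runx3 minus Runx1, in Tim-3+ TIL, Tim-3- TIL and naive cells. Points are arrays (circles set A, triangles set B), lines the group mean and bars ± SD. The first pair is lowest in Tim-3+ TIL, the middle pair is highest there and over 5 log2 units higher in either TIL group than in naive cells, and in the last pair the TIL groups overlap.

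Genes that T-bet, Eomes or RUNX3 are known to activate went both ways between the TIL groups. Of 13 measured, 3 rose and 3 fell in Tim-3+ against Tim-3- TIL, where 13.5% of all genes were called. Their median log2 change was 0.45 (0.011 over all genes). Gzmb, a granule protease, rose by 2.67 ± 0.30, Cx3cr1, a chemokine receptor of terminal effectors, by 1.80 ± 0.24, and Klrg1, an inhibitory receptor of effectors, by 1.41 ± 0.25. The sizes differed by array set. Among set A and set B arrays Gzmb rose by 3.28 and 2.36 and Klrg1 by 2.07 and 0.995, while Cx3cr1 was at 1.15 in A, short of the threshold (limma adjusted p = 0.0653), and rose by 2.14 in B.

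Cxcr3, a chemokine receptor and direct T-bet target, fell by 2.56 on the log2 scale to 8.53 in Tim-3+ TIL, against 11.10 in Tim-3- TIL. Itgae (CD103), an integrin that RUNX3 raises, fell by 2.55 and Il18r1 by 0.87. The Itgae change was -3.53 among set A arrays, -1.57 among set B arrays and -1.78 with the mean of its probe sets. Fasl, Ccl5 and Ifng were at 0.72, 0.53 and 1.18 without passing. With the mean over all probe sets of a gene, 7 of the 13 rose, which adds Fasl (0.87), Ifng (1.18), Il2rb (0.64) and Prf1 (1.69).

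In Tim-3- TIL 10 of these 13 rose and 2 fell against naive cells (median 3.13, against -0.063 over all genes), while in Tim-3+ TIL 9 did and 3 fell (median 3.16, against -0.066). Over all genes 34.4% and 41.5% were called. Ifng averaged 11.85 in Tim-3+ TIL, 10.67 in Tim-3- TIL and 3.75 in naive cells, and Fasl 10.35, 9.63 and 3.28, with both naive means below 5.71. Itgae went the other way, at 7.09 in Tim-3+ TIL, 9.64 in Tim-3- TIL and 12.05 in naive cells. Prf1 (perforin) fell slightly on the probe set used, by 0.60 in Tim-3- and 0.50 in Tim-3+ TIL. Those Prf1 calls were lost without Tim-3- replicate 2 or 3 in the first comparison, and without naive replicate 1 or 2 or Tim-3+ replicate 3 or 4 in the second (adjusted p up to 0.0877 and 0.0838). With the mean over its probe sets Prf1 instead rose by 1.12 in Tim-3+ TIL, and still fell by 0.57 in Tim-3- TIL.

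**Figure D3:**
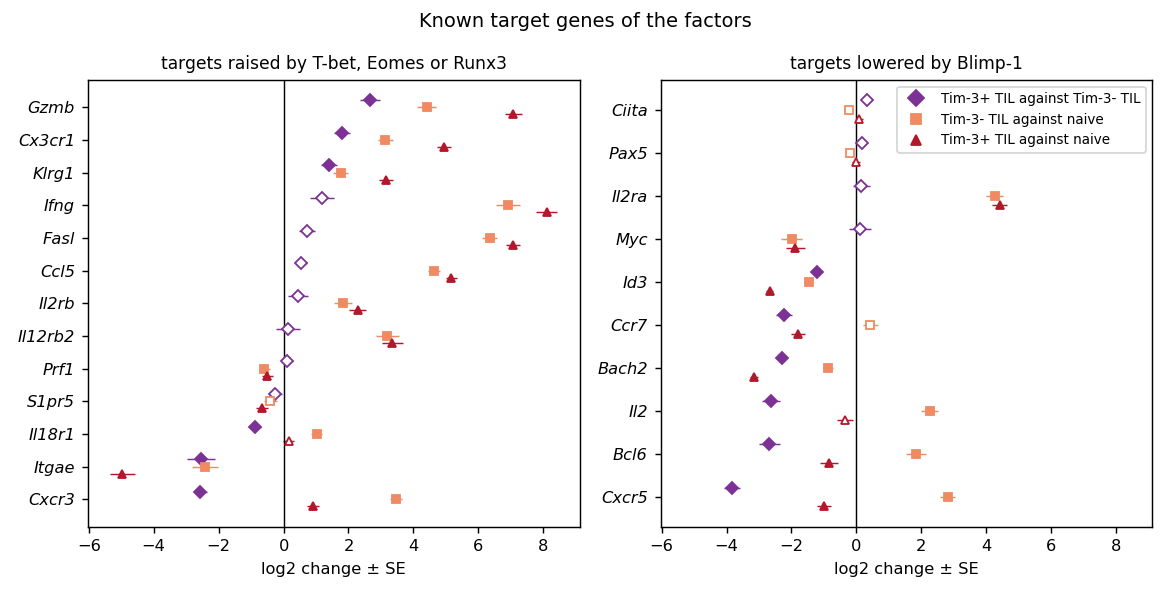
Log2 change ± SE (horizontal axis) of genes known as targets raised by T-bet, Eomes or RUNX3 (left, 13 genes) and lowered by Blimp-1 (right, 10 genes), in the 3 comparisons. Diamonds are Tim-3+ against Tim-3- TIL, squares Tim-3- TIL against naive and triangles Tim-3+ TIL against naive, filled where adjusted p was below 0.05. Bcl6, Cxcr5 and Il2 have squares right of 0 and diamonds left of 0.

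Bhlhe40 was below log2 5.71 on every naive array and far above it on every TIL array. It lay at 12.75, 12.76, 12.46 and 12.50 in Tim-3+ TIL, 12.85, 12.67 and 12.70 in Tim-3- TIL, and 4.79, 4.30, 5.65, 4.82 and 5.28 in naive cells. The TIL groups overlapped, and every TIL array was over 6 log2 units above every naive array. Means were 12.62 ± 0.16, 12.74 ± 0.098 and 4.97 ± 0.52 (SD), the naive mean below 5.71. The log2 change against naive was 7.77 ± 0.23 in Tim-3- TIL (limma adjusted p = 1.74e-11) and 7.65 ± 0.21 in Tim-3+ TIL (adjusted p = 4.19e-12), and -0.13 ± 0.24 between the TIL groups (adjusted p = 0.826). Its relative Bhlhe41, a repressor of the same E-box, rose by 0.63 ± 0.17 in Tim-3- and 0.87 ± 0.15 in Tim-3+ TIL, with its naive mean of 5.15 also below 5.71. The first of these Bhlhe41 calls did not hold when Tim-3- replicate 3 was dropped (adjusted p = 0.0575), nor among set A arrays (0.22, adjusted p = 0.308).

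Zeb2 rose in both TIL groups as well. Its levels were 9.44, 9.52, 10.003 and 10.22 in Tim-3+ TIL, 9.30, 9.26 and 9.41 in Tim-3- TIL, and 2.92, 2.73, 3.26, 3.41 and 2.92 in naive cells. All TIL arrays were far above all naive arrays, whose mean of 3.05 lay well below 5.71, and the lowest Tim-3+ array stood just above the highest Tim-3- array. The log2 change against naive was 6.27 ± 0.19 in Tim-3- TIL (limma adjusted p = 2.05e-11) and 6.75 ± 0.17 in Tim-3+ TIL (adjusted p = 2.60e-12). All 5 Zeb2 probe sets rose in both comparisons, by 0.98 to 6.27 and by 0.97 to 6.75. Their mean rose by 3.74 in Tim-3- TIL and by 4.22 in Tim-3+ TIL, so the size of the rise depended on the probe set.

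Between the TIL groups Zeb2 was higher by 0.48 ± 0.20 in Tim-3+ cells, short of the threshold (limma adjusted p = 0.147), and none of its 5 probe sets passed. Levels also differed by array set. Tim-3+ arrays of set A lay at 9.44 and 9.52 and those of set B at 10.003 and 10.22. Zeb2 differed by 0.18 among set A arrays (adjusted p = 0.533) and by 0.78 among set B arrays (adjusted p = 0.0246). A fit with the sets as a block gave 0.54 (adjusted p = 0.0194). With the mean over its probe sets it was 0.48 and passed (adjusted p = 0.00708).

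Zeb1 was well above 5.71 in all groups and moved less. It lay at 9.22, 9.11, 10.14 and 9.94 in Tim-3+ TIL, 10.19, 11.02 and 10.84 in Tim-3- TIL, and 10.25, 10.08, 10.11, 10.21 and 10.13 in naive cells. All Tim-3+ arrays were below all Tim-3- arrays, although Tim-3+ replicate 3 and Tim-3- replicate 1 nearly met. Zeb1 fell by 1.08 ± 0.24 on the log2 scale in Tim-3+ against Tim-3- TIL (limma adjusted p = 0.00766), a call kept in 12 of 12 fits without 1 array. Of its 4 probe sets 3 were called lower, at -1.08, -1.08 and -1.01, and the last, with all group means near log2 2, was at -0.19.

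In TIL Zeb1 was lower on set A than on set B arrays, and in naive cells the sets were close. Tim-3+ TIL averaged 9.17 in set A and 10.04 in set B, Tim-3- TIL 10.19 and 10.93, and naive cells 10.17 and 10.15. Between the TIL groups Zeb1 still fell among set A arrays (-1.02, limma adjusted p = 0.0172), among set B arrays (-0.89, adjusted p = 0.00276) and in the fit that takes the sets as a block (-1.003). Against naive cells the values by set lay farther apart. Tim-3+ TIL changed by -0.55 ± 0.21 in all (adjusted p = 0.0488), by -0.999 in set A and by -0.11 in set B (adjusted p = 0.477).

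Leaving out any naive array, Tim-3+ replicate 1 or 2, or Tim-3- replicate 3 ended that Zeb1 call (adjusted p up to 0.166). It held with the array sets as a block (-0.51, adjusted p = 0.0160) and not with the replicate number as a block (-0.56, adjusted p = 0.0550). In the fit over all probe sets none of the 4 Zeb1 probe sets passed it, including the one used (adjusted p = 0.0531). Tim-3- TIL stood 0.53 ± 0.23 above naive, short of the threshold (adjusted p = 0.0956), at 0.023 within set A and 0.78 within set B (adjusted p = 0.000834). It passed in the fit with array sets as a block (0.4955, adjusted p = 0.0323). Without Tim-3- replicate 1 it passed (0.77, adjusted p = 0.0201).

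Set against each other within an array, Zeb2 minus Zeb1 averaged 0.19 ± 0.23 in Tim-3+ TIL, -1.36 ± 0.44 in Tim-3- TIL and -7.11 ± 0.27 in naive cells (SD), with no overlap. The change was 1.56 between TIL groups (exact permutation p = 0.0571, adjusted 0.0643), where all 4 Tim-3+ arrays lay above all 3 Tim-3- arrays. Against naive it was 5.74 in Tim-3- TIL (exact p = 0.0357, adjusted 0.0536) and 7.30 in Tim-3+ TIL (exact p = 0.0159, adjusted 0.0476). Each of these exact p-values was the smallest its array numbers allow. The naive mean of Zeb2 lay below 5.71, and the size of the changes depends on the probe sets. With the mean over probe sets, Zeb2 rose by 4.22 and Zeb1 changed by -0.36 in Tim-3+ TIL against naive.

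**Figure D4:**
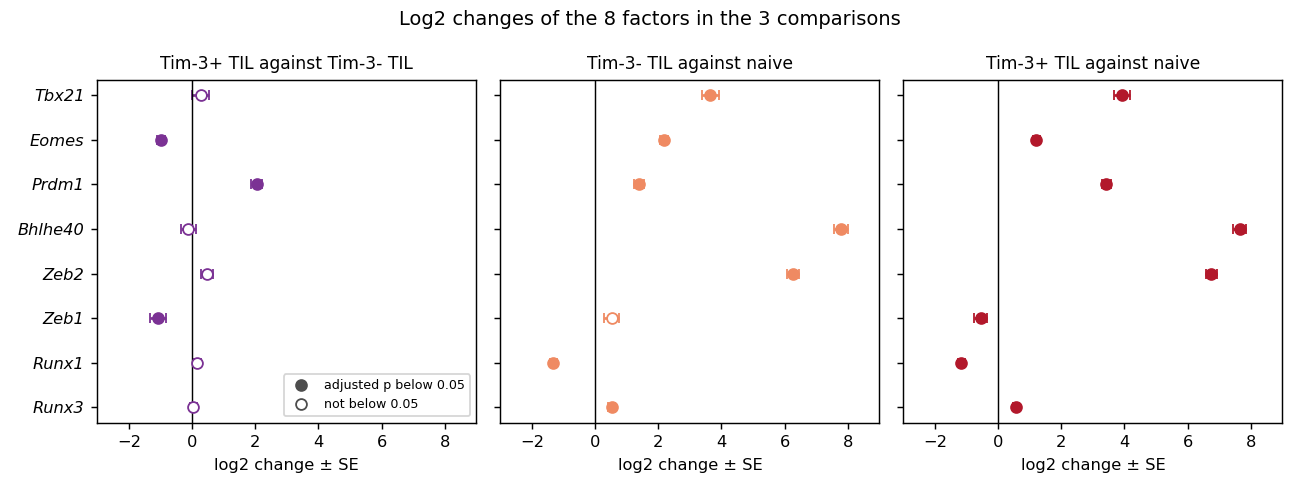
Log2 change ± SE (horizontal axis) of the 8 factors in the 3 comparisons, from limma over 12 arrays. Filled points have adjusted p below 0.05. In the left panel only Prdm1, Eomes and Zeb1 are filled, and in the middle and right panels Bhlhe40 and Zeb2 lie farthest right and Runx1 farthest left.

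The Runt genes split. Runx1 lay at 8.51, 8.35, 8.63 and 8.58 in Tim-3+ TIL, 8.34, 8.35 and 8.38 in Tim-3- TIL, and 9.90, 9.78, 9.61, 9.49 and 9.61 in naive cells. Every TIL array was below every naive array, and the TIL groups overlapped. Runx1 fell by 1.32 ± 0.11 on the log2 scale in Tim-3- TIL (limma adjusted p = 3.79e-07) and by 1.16 ± 0.099 in Tim-3+ TIL (adjusted p = 3.18e-07). Between the TIL groups the change was 0.16 ± 0.11 (adjusted p = 0.451).

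The 6 probe sets of Runx1 did not move alike. Of these, 3 fell against naive in both comparisons, with log2 changes between -1.32 and -1.204 in Tim-3- TIL and between -1.32 and -1.16 in Tim-3+ TIL. The other 3 did not pass in either, with log2 changes between -0.31 and -0.021. One of them averaged 8.07 ± 0.047 in Tim-3+ TIL, 8.04 ± 0.086 in Tim-3- TIL and 8.09 ± 0.17 in naive cells (SD). RefSeq annotates 2 starts for Runx1 in its promoter table, and which transcripts each probe set reads was not tested. The mean over all 6 probe sets fell by 0.73 in Tim-3- TIL and by 0.70 in Tim-3+ TIL, and still passed.

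Runx3 rose a little in TIL. It lay at 10.97, 10.92, 11.32 and 11.08 in Tim-3+ TIL, 10.85, 11.13 and 11.12 in Tim-3- TIL, and 10.49, 10.51, 10.54, 10.56 and 10.46 in naive cells. All TIL arrays exceeded all naive arrays, and the TIL groups overlapped. The rise was 0.52 ± 0.11 in Tim-3- TIL (limma adjusted p = 0.00183) and 0.56 ± 0.10 in Tim-3+ TIL (adjusted p = 0.000363), while Tim-3+ minus Tim-3- TIL came to 0.043 ± 0.11 (adjusted p = 0.880).

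The other Runx3 probe set gave rises of like size, 0.53 ± 0.38 and 0.46 ± 0.35, that did not pass. On it the arrays of set A lay between 8.81 and 9.28 in all groups and those of set B between 9.43 and 10.58. On the probe set used, the rise in Tim-3- TIL was 0.35 within set A (limma adjusted p = 0.116) and 0.60 within set B. With the mean over both probe sets neither rise passed (adjusted p = 0.0857 and 0.0594). Runx3 minus Runx1 within an array averaged 2.56 ± 0.10 in Tim-3+ TIL, 2.67 ± 0.14 in Tim-3- TIL and 0.83 ± 0.18 in naive cells (SD). It changed by 1.84 in Tim-3- TIL and 1.72 in Tim-3+ TIL against naive (exact permutation p = 0.0357 and 0.0159, adjusted 0.0536 and 0.0476). Both exact p-values were the smallest these array numbers allow. Between the TIL groups it changed by -0.12 (exact p = 0.229).

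**Figure D5:**
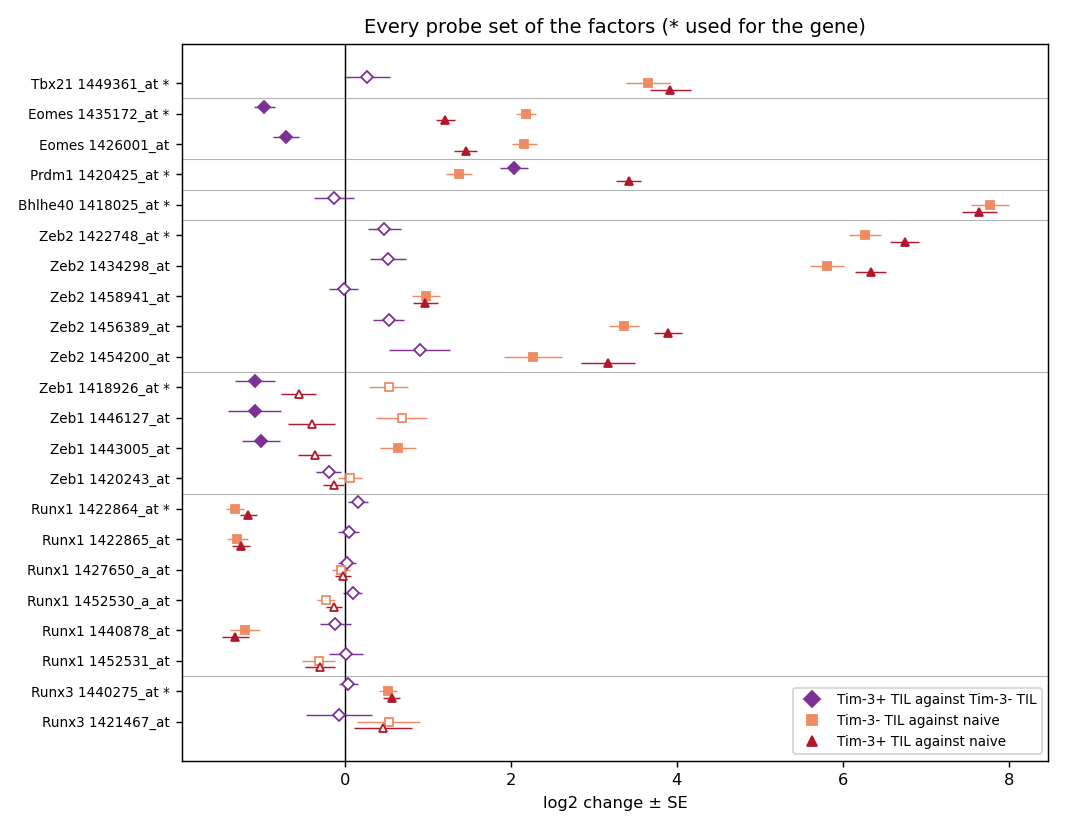
Log2 change ± SE (horizontal axis) of all 22 probe sets of the 8 factors, ordered by gene and, within a gene, by mean level, from a fit over 45037 probe sets. Diamonds are Tim-3+ against Tim-3- TIL, squares Tim-3- TIL against naive, triangles Tim-3+ TIL against naive, filled where adjusted p was below 0.05. Runx1 probe sets form 2 groups, near 0 and near -1.2, and Zeb2 probe sets differ widely in size with all squares and triangles right of 0.

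Over all 22 probe sets of the factors, 6 were called between the TIL groups (1 higher and 5 lower), against 10.9% of 45037 probe sets. Against naive, 15 were called in Tim-3- TIL (12 higher, 3 lower) and 14 in Tim-3+ TIL (11 higher, 3 lower), against 33.2% and 40.3%. Within each gene that has several, all probe sets had 1 sign in either comparison against naive, called or not.

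Partners and corepressors of these factors were read next. Of 20 listed, 18 were measured, and between the TIL groups 1 rose and 4 fell, where 13.5% of all genes were called (median log2 change -0.068, against 0.011 over all genes). Cbfb, the partner that RUNX proteins need, averaged 11.29 ± 0.12 in Tim-3+ TIL, 10.96 ± 0.12 in Tim-3- TIL and 11.35 ± 0.051 in naive cells (SD). Its rise between the TIL groups, 0.33 ± 0.10 (limma adjusted p = 0.0418), was lost in 10 of 12 fits without 1 array (adjusted p up to 0.181), kept when Tim-3- replicate 1 or Tim-3+ replicate 4 was the one left out. Within sets A and B it was 0.28 and 0.31, both short of the threshold.

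Hopx, an atypical homeodomain cofactor that does not itself bind DNA, averaged 10.31 in Tim-3+ TIL, 10.81 in Tim-3- TIL and 8.97 in naive cells, highest in Tim-3- TIL like Eomes. It fell by 0.51 ± 0.11 between the TIL groups. Within set A that change was -0.42 (limma adjusted p = 0.137). Smad3, which carries TGF-beta signals, fell by 0.999 ± 0.24, Stat4, which carries interleukin 12 signals, by 0.62 ± 0.16, and the Groucho corepressor Tle3 by 0.55 ± 0.15.

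These 3 calls depended on single arrays. Smad3 was lost without Tim-3- replicate 2 or 3, Stat4 without either of these or Tim-3+ replicate 1 or 2, and Tle3 if Tim-3- replicate 1, Tim-3+ replicate 3 or Tim-3+ replicate 4 was dropped (adjusted p up to 0.0993). Within set A the Smad3 and Tle3 changes were -0.69 and -0.74, both short of the threshold. In Tim-3- TIL 4 of 18 rose and 5 fell against naive cells (median 0.025, against -0.063 over all genes), and Tim-3+ TIL had 5 risen and 6 fallen (median -0.16, against -0.066), beside 34.4% and 41.5% of all genes called. The Groucho genes Tle1 and Tle4, corepressors that RUNX proteins recruit, changed by -1.40 and -1.14 in Tim-3- TIL and by -1.61 and -1.57 in Tim-3+ TIL, all called.

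For the 7 factors whose group means spanned at least 1 log2 unit, the genes with the most similar pattern were found by the root mean square (RMS) difference over 12 arrays of log2 levels centred on each gene's mean. For Eomes these were Tgif1 (RMS 0.15) and Hopx (0.22). Tgif1 averaged 9.86 in Tim-3+ TIL, 10.98 in Tim-3- TIL and 8.79 in naive cells. For Prdm1 they were Fzd4 (0.27) and Osgin1 (0.29), and for Zeb1 Smad3 (0.13) and Antxr2 (0.16).

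Zeb2 was nearest to Pdcd1 (RMS 0.34), the gene of the sort marker PD-1, and to Perp (0.36). Bhlhe40 was nearest to Klrc1 (0.39) and Plek (0.46), Tbx21 to Phlda1 (0.24) and Rhoc (0.26), and Runx1 to Eng (0.11) and Patz1 (0.13). Runx3, with a span of 0.56, was not searched.

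Several of these factors are also used by other cells, so markers of those cells were summed on the linear scale. NK cells use T-bet, Eomes, ZEB2 and Blimp-1. Of 8 NK cell markers 6 were measured, and their summed intensity was 1850 to 2360 in Tim-3+ TIL, 773 to 1610 in Tim-3- TIL and 299 to 476 in naive cells. Between the TIL groups Fcer1g, Styk1 and Klre1 rose by 2.54, 3.33 and 1.62. The other 3 did not pass between the TIL groups. Of these Cd160 averaged 9.03 in Tim-3+ TIL, 9.37 in Tim-3- TIL and 8.09 in naive cells, and rose in both TIL groups against naive. Ncr1, an NK cell activating receptor, and Klra8, present on some NK cells, averaged 3.20 and 2.68 in Tim-3+ TIL and 3.32 and 2.80 in Tim-3- TIL, below 5.71.

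Regulatory T cells use Blimp-1 and myeloid cells ZEB2. CD4 and regulatory T cell markers (6 of 6 measured) summed to 3180 to 4000 in Tim-3+ TIL, 3120 to 3510 in Tim-3- TIL and 732 to 913 in naive cells. Of these, Foxp3 and Cd40lg fell and Ikzf4 rose in Tim-3+ against Tim-3- TIL, the last call being lost without Tim-3- replicate 2 (limma adjusted p = 0.0523). The sum leans on Ikzf2 and Ikzf4, which averaged 10.82 and 10.30 in Tim-3+ TIL and 7.28 and 8.23 in naive cells. Against naive, Ikzf2 rose by 3.64 in Tim-3- and 3.54 in Tim-3+ TIL, and Ikzf4 by 1.42 and 2.06. Cd4 rose by 0.83 and 0.99 and Zbtb7b by 0.51 and 0.63. Foxp3 rose by 0.85 in Tim-3- TIL only, at -0.16 in Tim-3+ TIL, and Cd40lg passed in neither (0.41 and -0.34). Monocyte and macrophage markers (11 of 12 measured) summed to 480 to 584, 571 to 671 and 409 to 495 in the same order of groups, with 8 of 11 below 5.71 in each. Dendritic cell markers (7 of 8) summed to 343 to 396, 361 to 484 and 355 to 450, and B and plasma cell markers (9 of 10) to 669 to 1040, 794 to 1150 and 877 to 986. These sums hide called changes. Against naive, Cd79a and Cd79b fell and Xbp1 rose in both TIL groups. Cd79b averaged 5.594 in Tim-3+ TIL, 6.371 in Tim-3- TIL and 8.888 in naive cells, and Xbp1 9.111, 9.42 and 7.46. Cd68 and Itgax also rose and Siglech fell in both, each with 1 call lost in 1 of 12 fits without 1 array. Between the TIL groups Cd14 rose and Cd68, Itgax and Cd79b fell. The Cd68 and Itgax calls were lost in 3 and 8 of 12 such fits.

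Melanoma markers (8 of 8) summed to 341 to 1280 in Tim-3+ TIL, 433 to 703 in Tim-3- TIL and 451 to 594 in naive cells. None passed between the TIL groups in limma, where 13.5% of all genes were called. Against naive, Tim-3+ TIL had 5 risen and 1 fallen, beside 41.5% of all genes called. In Tim-3- TIL 2 rose and 1 fell, beside 34.4% of all genes called. Tyrp1 and Dct rose by 3.05 and 2.24 in Tim-3- TIL and by 3.66 and 2.92 in Tim-3+ TIL. The Dct call in Tim-3- TIL was lost without Tim-3- replicate 3 (limma adjusted p = 0.0515). Pmel, at 8.05 in naive cells, fell by 0.88 and 1.24, so the sums hide changes of opposite direction. The part of such cells in the levels of the factors was not tested, and fewer cells of a type and less RNA per cell cannot be told apart in these samples.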

How the data were processed

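Arrays of 12 samples of sorted mouse CD8 T cells were read from 1 deposited table of 45101 probe sets, 64 of them array controls. Its values are linear intensities, deposited by the authors. RMA and the affy package are named in the submitters' processing notes. Software versions and the step back to linear values are not stated in what was used here. Array medians lay between 58.8 and 63.0. The number of arrays limits the precision.

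Intensities were put on the log2 scale. By the array's annotation 34945 probe sets stood for a single gene, 932 for several genes and 9160 for none, which gave 18193 genes, each with its single-gene probe set of highest mean. No filter on dim genes was applied. Group means of the 3 groups were compared in limma 3.58.1 under R 4.3.3, fitted once to all 12 arrays with empirical Bayes moderation, two-sided, with Benjamini-Hochberg adjustment over all genes or all probe sets. Differences between 2 factors within an array were tested by exact permutation over arrays (scipy 1.17.1). Python 3.11.15, numpy 2.4.6, pandas 2.3.3 and matplotlib 3.10.9 did the rest, and the method was tested on simulated data.

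Alternatives were other rules for probe sets, quantile normalization, a filter on dim genes, trend, array weights, fits of only the groups compared, a 2-fold minimum, blocks, fits within array sets and leaving out each array.

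The factors, gene lists, comparisons and alternatives were chosen with earlier results of these data known. Listed genes named in the text are up to 4 per list and comparison with the smallest adjusted p, the sort markers and the 2 genes most like each factor. Other listed genes, given to complete a count or as defining markers, were chosen after their values were seen. Deviations of arrays with the same replicate number correlated across genes at 0.13 to 0.32 in all 4 pairs of Tim-3+ and naive arrays. Both arrays of each such pair lie in the same array set, so pairing and set cannot be told apart. Over all 10 pairs the range was -0.15 to 0.41, and both pairs below 0 hold Tim-3- replicate 2. That array lies in set B, while replicate 2 of the other groups lies in set A. Whether equal numbers mark paired samples is therefore not known, and the main fit used no pairing. No sequence of Zeb1, Zeb2 or Bhlhe40 is printed.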

Additional observations from a re-analysis of the deposited data

How the results depend on the processing

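With 1 array left out, Prdm1, Eomes and Zeb1 were called between the TIL groups in each of 12 fits and no other factor was, and the other alternatives gave 2 to 4. Against naive cells 7 to 8 were called without 1 array, and 6 to 8 under the other alternatives, in either TIL group. A minimum of 2-fold took out Eomes between the TIL groups (-0.97), Runx3 in both comparisons against naive, and Zeb1 in Tim-3+ TIL. Over the 8 factors, 3 comparisons and 12 fits without 1 array, 277 results kept direction and side of the threshold, 8 lost the call, 1 gained it and 2 changed sign. Over the other alternatives 263 kept both, 13 lost it, 8 gained it and 4 changed sign.

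The changes of sign concern values near 0 between the TIL groups that never passed. Runx1 was -0.12 with its most variable probe set. Runx3 was -0.011 with the mean of its probe sets, -0.066 with the most variable, -0.0084 with array weights and between -0.047 and 0.096 without 1 array. Runx3 minus Runx1 was 0.051 with the most variable probe sets. The cause was not tested.

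Over all genes, calls between the TIL groups, in Tim-3- and in Tim-3+ TIL against naive numbered 2463, 6252 and 7554. They numbered 775, 2183 and 2598 with the 2-fold minimum, and 1590 between the TIL groups within set A, where only 5 arrays enter. Zeb1 in Tim-3- TIL against naive passed in 5 of the 12 other alternatives, with array weights (0.68), the mean of its probe sets (0.48), only these groups fitted (0.53), the array sets as a block (0.4955) and within set B (0.78).

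Adjusted exact p-values of the 3 differences within an array for Tim-3+ TIL against naive rose to 0.0536 or 0.0643 whenever 1 of their arrays was left out, because fewer arrays allow fewer permutations. Their values stayed between -2.85 and -2.55 for Eomes minus Tbx21, between 7.23 and 7.41 for Zeb2 minus Zeb1, and between 1.66 and 1.78 for Runx3 minus Runx1. These ranges hold for the probe sets used. The mean over probe sets changed in Tim-3+ TIL against naive by 4.22 for Zeb2, -0.36 for Zeb1, 0.51 for Runx3 and -0.70 for Runx1. With the mean of a gene's probe sets, 7 in place of 3 targets of T-bet, Eomes or RUNX3 rose between the TIL groups, and 1 in place of 4 relatives rose in Tim-3- TIL against naive.

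With the replicate number as a block, Prdm1, Eomes and Zeb1 changed by 2.12, -0.95 and -1.14 between the TIL groups, all still called. That block ended 1 call, Zeb1 in Tim-3+ TIL against naive (-0.56, limma adjusted p = 0.0550), and changed no other call among the factors.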

Other observations

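Other genes of the same families were read in the same comparisons. Of 32 listed T-box, PRDM and core binding factor relatives, 27 were measured. Between the TIL groups 0 rose and 2 fell (median log2 change -0.12, against 0.011 over all genes). In Tim-3- TIL against naive 4 rose and 5 fell (median 0.055, against -0.063), and in Tim-3+ TIL against naive 1 rose and 6 fell (median -0.16, against -0.066). Over all genes 13.5%, 34.4% and 41.5% were called in these comparisons, so the share of relatives called was above that background in none of the 3.

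Cbfa2t3, a corepressor of the ETO family, averaged 5.43 in Tim-3+ TIL, 6.67 in Tim-3- TIL and 5.602 in naive cells. It fell by 1.24 ± 0.16 between the TIL groups (limma adjusted p = 0.000134), with the Tim-3+ and naive means below log2 5.71, and by 0.41 with the mean of its probe sets. Against naive Cbfa2t3 rose by 1.07 in Tim-3- TIL and did not pass in Tim-3+ TIL (-0.18). With the mean of its probe sets that rise was 0.22 and did not pass. Prdm2, a relative of Blimp-1 with a histone methyltransferase domain, fell by 0.72 ± 0.17 (adjusted p = 0.00972). Leaving out Tim-3- replicate 2 or 3 ended this call (adjusted p up to 0.0609), and within set A the change was -0.34. Against naive Prdm2 rose by 0.48 in Tim-3- TIL (adjusted p = 0.0296), a call lost in 4 of 12 fits without 1 array. In Tim-3+ TIL it was at -0.24 against naive and did not pass. Mga, a T-box protein that also pairs with MAX, fell against naive by 0.84 ± 0.12 in Tim-3- TIL, and fell by 1.14 ± 0.11 in Tim-3+ TIL. Prdm15 changed by -1.26 and -1.63, and Prdm4 rose by 0.92 and 0.93. Within set A the Prdm15 change in Tim-3- TIL was -0.75 (adjusted p = 0.114).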
